A study of Mus musculus with 6 samples.

Results

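The cell adhesion molecules of the immunoglobulin family described here are Alcam, Mcam, Ncam1, Vcam1, Icam1, L1cam, Nrcam, Chl1, Bcam and Nfasc. They were measured by all array probes that carry one of these 10 gene names, which gave 15 of 55681 non-control probes and 10 of 36499 gene names. The family was picked on the measured difference of Alcam, one of the larger rises after transforming growth factor beta (TGFb), so the change in Alcam is described and not tested. The cells were primary myoblasts, the proliferating precursors of muscle fibres, sorted by flow cytometry from skeletal muscle of male C57BL/6 mice aged 3 months. One group (n = 3 arrays) had been exposed to TGFb for 4 days and the other (n = 3 arrays) was left untreated. Neither the dose nor the isoform of TGFb is named in the labels. The labels call the samples biological replicates, but the scanner file names number untreated replicates 1 and 2 alike. If those arrays shared a culture, the errors and p-values below are too small.

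Proteins of this family carry immunoglobulin-like domains outside the cell and hold cells to each other or to the matrix by binding copies of themselves, other members, integrins or laminin. Alcam binds itself and the lymphocyte receptor CD6. Ncam1 is a muscle and nerve adhesion molecule whose transcripts end in alternative terminal exons, so that the protein is made either with a membrane-spanning part or with a lipid anchor. Vcam1 and Icam1 are cytokine-inducible ligands of leukocyte integrins, and Vcam1 is also a surface marker of muscle stem cells. L1cam, Nrcam, Chl1 and Nfasc make up the L1 family, whose cytoplasmic tails can bind ankyrin. Bcam is a receptor for laminin alpha 5, and Mcam is best known from endothelial cells, pericytes and melanoma.

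The array probes are short DNA strands of 60 bases. The transcripts named for each probe were taken from the array's annotation, and the sequences were not aligned here. The probes of Alcam and Bcam, the genes with the largest differences in either direction, and the probe common to the Ncam1 variants are printed in full. For the 2 other Ncam1 probes, which list different transcript variants and gave opposite results, the first 30 bases are shown. No part of these sequences is singled out, so they are in lower case throughout.
Alcam A_51_P359272: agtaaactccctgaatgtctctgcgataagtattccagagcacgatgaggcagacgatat
Bcam A_51_P173601: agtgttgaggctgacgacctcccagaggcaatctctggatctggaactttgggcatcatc
Ncam1 A_55_P2028942, all 3 variants: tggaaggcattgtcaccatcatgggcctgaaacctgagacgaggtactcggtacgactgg
Ncam1 A_55_P2050602, variant 2: ctgtgtattagtacagtccgtacaccatgt
Ncam1 A_51_P380309, variants 1 and 3: actttttactgagtgaaacatcaacaccac

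On mm9, the build named in the file headers, the Alcam probe lies on chromosome 16 between 52268908 and 52270785 on the minus strand. That span of 1878 bases for a probe of 60 means that the probe crosses at least 1 intron. The Bcam probe spans 148 bases of chromosome 7, from 20341911 to 20342058 on the minus strand, and crosses an intron too. No exon or UTR annotation on mm9 was used.

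Values below are log2 processed intensities after the 75th percentile of the array was subtracted, so 0 means a signal equal to that percentile. Differences are TGFb minus untreated, with the standard error (SE) of the limma fit. A probe was tested if its signal was well above background, by the scanner software's flag, on at least 3 of the 6 arrays. This held for 11 of the 15 probes and 7 of the 10 genes. The brightest probe stood for each gene, and its adjusted p was taken over 21999 genes, while the adjusted p of any other probe was taken over 30197 probes. Arrays were scanned on 2 days, each of which held both groups, and scan day was the main source of variation. Across genes, the correlation was 0.970 to 0.977 for a TGFb and an untreated array of the same day, and 0.919 to 0.929 for arrays of the same group from separate days. Day 1 held TGFb replicate 1 with untreated replicates 1 and 2, and day 2 held the other 3 arrays. Each difference is therefore also given from a second limma fit that includes the scan day, called the scan-day model. The 75th percentile of processed intensity was 879 to 1578 per array, and 6 of 7 myoblast markers (Pax7, Myod1, Myog, Cdh15, Itga7 and Des) were well above background on all arrays.

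Without scan day, 0 of the 6 tested members other than Alcam passed an adjusted p of 0.05 in limma, against 1.37% of all genes. An unadjusted p under 0.05 was found for 3 of them, and for 2528 of all 21999 genes. In the scan-day model 3 of 6 passed, against 10.2% of all genes. Ncam1 rose by its brightest probe (4.59% of all genes rose in that model), and Nrcam and Bcam fell (5.59% of all genes fell). With slide as a block in place of the day, Nrcam and Bcam passed, against 3.5% of all genes. Only 2 of the 4 slides held both groups, so this difference came from those slides alone. TGFb replicate 3 and untreated replicate 1 were on slides without the other group and added nothing to it. In Ncam1, Nrcam and Bcam the groups did not overlap on the brightest probe, which held for 18% of all genes. By probe, 0 of the 10 tested probes other than that of Alcam passed without scan day, against 1.02% of all probes. Of the 10, 4 had an unadjusted p under 0.05, as had 3301 of all 30197 tested probes. The scan-day model called 5 of the 10, against 8.38% of all probes: 2 rose (3.74% of all probes rose) and 3 fell (4.65% fell). Several of these calls depended on single arrays. In the scan-day model over genes, Bcam passed whichever of the 6 arrays was left out. Nrcam was lost without TGFb replicate 1, untreated replicate 1 or untreated replicate 3. Ncam1 was lost without each of the 3 untreated arrays. The count of members called was thus 2 without TGFb replicate 1, 3 without TGFb replicate 2 or 3, 1 without untreated replicate 1 or 3, and 2 without untreated replicate 2. In the scan-day model over probes, only the Bcam probe of the 10 passed without TGFb replicate 1, untreated replicate 1 or untreated replicate 2. None of the 10, that of Bcam included, passed without untreated replicate 3. Without that array day 2 held no untreated array, and without TGFb replicate 1 day 1 held no TGFb array. In those fits the difference came from the other day alone.

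**Figure D1:**
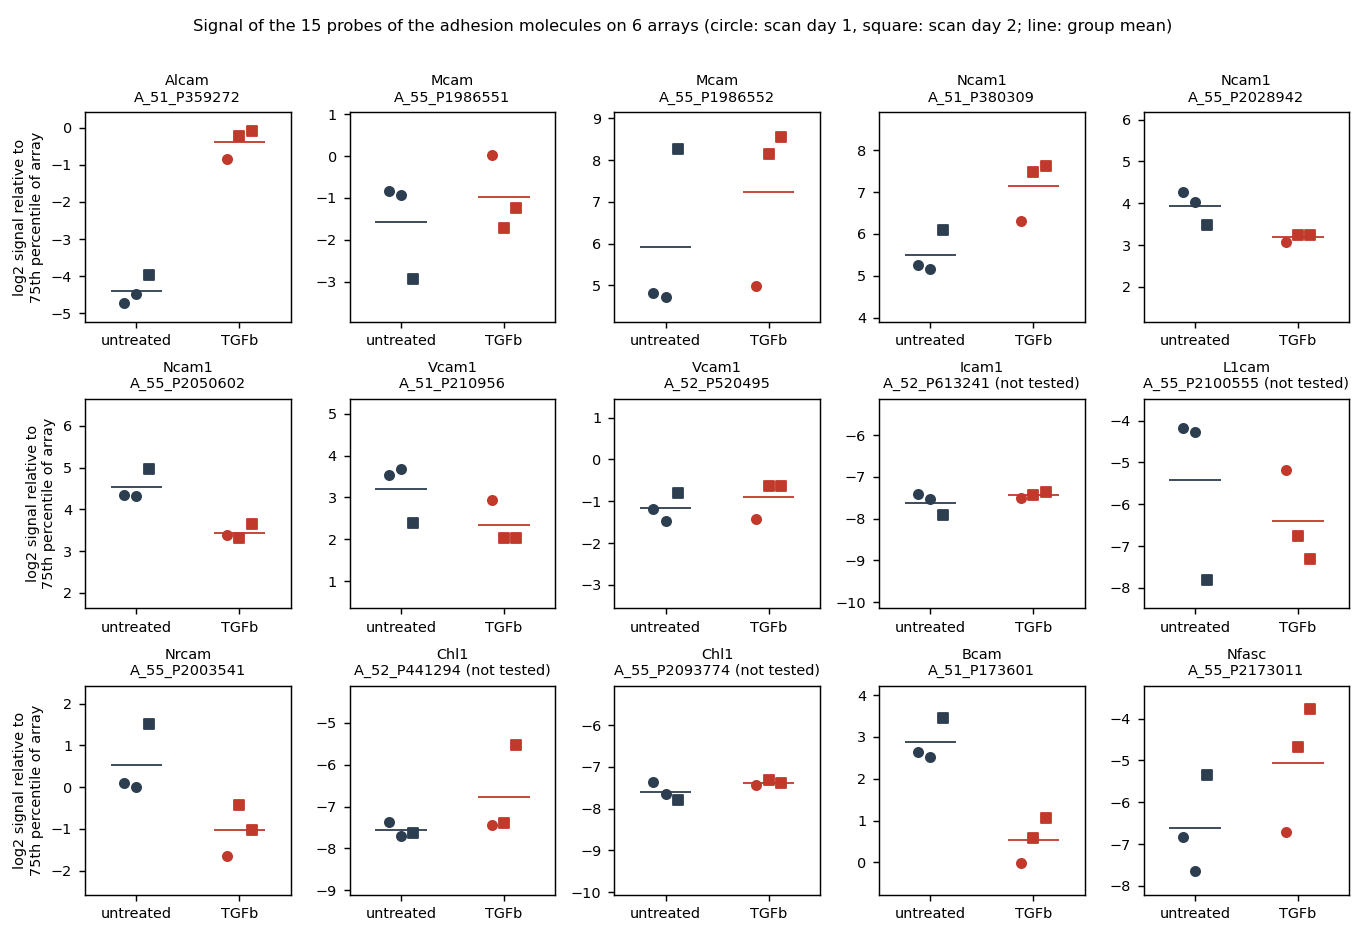
Log2 signal relative to the 75th percentile of the array for each of the 15 probes, with untreated and TGFb arrays side by side (3 each), circles for scan day 1, squares for scan day 2 and a line at each group mean. Each panel has its own axis range, so heights cannot be compared between panels. Alcam sits far higher on the 3 TGFb arrays, Bcam far lower, and the brighter Mcam probe follows the scan day.

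Alcam, chosen for its change, read -4.72, -4.49 and -3.98 on the untreated arrays and -0.84, -0.21 and -0.09 on the TGFb arrays. Every TGFb array was above every untreated array, and within each group the day 2 arrays were the highest. The processed intensities were 33.3, 44.5 and 100 units untreated and 534, 1031 and 1288 with TGFb, so the gene was dim but well above background in untreated cells. The difference was 4.02 ± 0.34 (SE, n = 3 per group), a fold of 16.2, and the scan-day model gave 3.80 ± 0.15. It was 3.77 within day 1 and 3.83 within day 2. It ranked 38th among the rises of all tested genes, and 16th among those of genes well above background on all 6 arrays. It was 3.01 with normexp background correction. The authors' deposited table of normalized values gave 2.78, where untreated arrays read 7.10 to 7.53 and TGFb arrays 10.02 to 10.24.

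Of 12429 other named genes well above background on all 6 arrays, Col8a2, a chain of a short-chain collagen, followed Alcam most closely (Pearson r = 0.9997 over 6 arrays). Gpm6b, a membrane glycoprotein, followed at 0.9989, Itga11, a collagen-binding integrin chain, at 0.9986, Bmper, a secreted regulator of bone morphogenetic proteins, at 0.9986, and Akap12, a kinase-anchoring protein, at 0.9984. Their differences between groups were 3.38, 3.18, 3.41, 2.54 and 1.72. These coefficients describe arrays that share scan day and treatment, and a gap between the groups that is large against the spread within them gives a high value.

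The 250 bases upstream of the Alcam start were taken from RefSeq on GRCm38.p6 (chromosome 16, 52453082 to 52453331, minus strand), because the family was picked on this gene. Capitals mark GC boxes and a CCAAT box on either strand.
Alcam upstream: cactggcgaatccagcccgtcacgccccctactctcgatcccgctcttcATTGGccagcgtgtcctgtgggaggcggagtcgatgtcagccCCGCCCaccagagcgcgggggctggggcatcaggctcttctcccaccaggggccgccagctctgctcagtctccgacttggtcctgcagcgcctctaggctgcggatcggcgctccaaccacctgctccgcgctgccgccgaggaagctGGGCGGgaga

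The letters GGGCGG were found 2 times and CCAAT 1 time in this window, counting both strands. Over 32851 promoter entries, 32.7% held GGGCGG and 33.8% held CCAAT. The SMAD-binding box CAGAC (42.2% of entries), the AP-1 site TGANTCA (6.75%) and the TATA box TATAAA (12.4%) were not in the Alcam window, which says only that these letters are absent there. Entries were found for 8 of the 10 members, and none for Ncam1 and Vcam1. Among the 10 entries of those members, 7 held GGGCGG, 3 held CCAAT, 1, in Nfasc, held CAGAC, and 0 held TGANTCA or TATAAA.

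Bcam, the laminin receptor, was the member with the largest fall. It read 2.64, 2.51 and 3.46 untreated and -0.01, 0.59 and 1.06 with TGFb. The highest TGFb array lay well below the lowest untreated array, and day 2 arrays were the highest of each group. The difference was -2.33 ± 0.42 (SE, n = 3 per group; limma adjusted p = 0.0696), and the scan-day model gave -2.61 ± 0.18 (adjusted p = 0.00268). Day 1 alone gave -2.59 and day 2 alone -2.64. The authors' deposited table gave 13.34, 13.24 and 13.84 untreated against 10.53, 11.27 and 11.68 with TGFb. Bcam passed the threshold there without a scan-day term (adjusted p = 0.00294 over probes), and also after quantile normalization (0.0431) and normexp correction (0.0484).

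**Figure D2:**
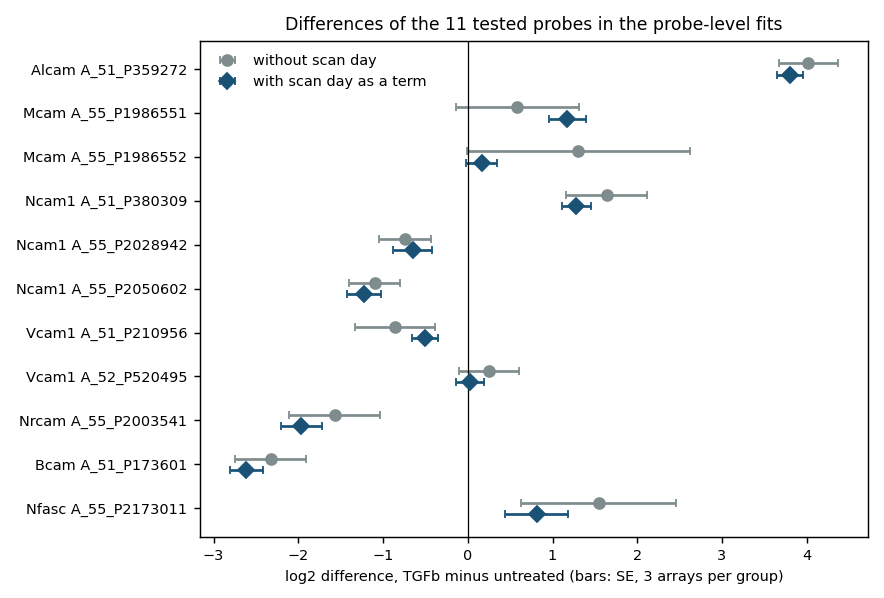
Log2 difference between 3 TGFb and 3 untreated arrays for the 11 tested probes, with SE bars, from the fit over all tested probes without scan day (circles) and from the scan-day model (diamonds). Bars are shorter in the scan-day model for every probe. The 3 Ncam1 probes lie on both sides of 0, and the difference of the brighter Mcam probe moves from 1.30 to 0.16.

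Ncam1 had 3 probes, and they did not agree in direction. All lie on the minus strand of mm9 chromosome 9. The probe at 49351182 to 49351241 lists the RefSeq transcripts NM_010875, NM_001081445 and NM_001113204 in the array's annotation. That at 49323381 to 49323440 lists NM_010875 alone, and that at 49310320 to 49310379 lists NM_001113204 and NM_001081445. The array's annotation calls NM_010875 variant 2 and NM_001113204 variant 3, and NM_001081445 is called variant 1 here. The order on the minus strand puts the shared probe first, the variant 2 probe next and the probe of variants 1 and 3 last.

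The probe of variants 1 and 3, A_51_P380309, read 5.26, 5.17 and 6.09 untreated and 6.31, 7.49 and 7.64 with TGFb. Its groups did not overlap. The difference was 1.64 ± 0.47 (SE, n = 3 per group; limma adjusted p = 0.232), and the scan-day model gave 1.28 ± 0.16 (adjusted p = 0.0107). Day 1 alone gave 1.09 and day 2 alone 1.47. The variant 2 probe, A_55_P2050602, read 4.34, 4.32 and 4.97 untreated and 3.38, 3.30 and 3.64 with TGFb, again with no overlap but in the other direction (the groups did not overlap for 17.4% of all probes). Its difference was -1.10 ± 0.30 (adjusted p = 0.229), and in the scan-day model -1.22 ± 0.20 (adjusted p = 0.0273), or -0.95 on day 1 and -1.50 on day 2. The call of the variant 2 probe in that model was lost without TGFb replicate 1 and without each of the untreated replicates. The shared probe, A_55_P2028942, read 4.26, 4.04 and 3.47 untreated and 3.08, 3.24 and 3.25 with TGFb. It was lower on every TGFb array, but its difference of -0.74 ± 0.31 did not pass (adjusted p = 0.46), nor did that of the scan-day model (-0.65 ± 0.24, adjusted p = 0.165). It was -1.07 on day 1 and -0.23 on day 2.

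The change between the probe of variants 1 and 3 and the variant 2 probe can be read within each array. The level of one probe cannot be set against that of another. The log2 value of the variants 1 and 3 probe minus that of the variant 2 probe was 0.92, 0.85 and 1.12 on the untreated arrays and 2.92, 4.19 and 4.00 on the TGFb arrays. This gap was wider on every TGFb array, by 2.74 on average, by 2.04 within day 1 and by 2.97 within day 2. The opposite directions were known before the probes were set out here, so no test is given. In the authors' deposited table the probes kept these directions, at 1.28, -1.14 and -0.63 for variants 1 and 3, variant 2 and the shared probe.

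**Figure D3:**
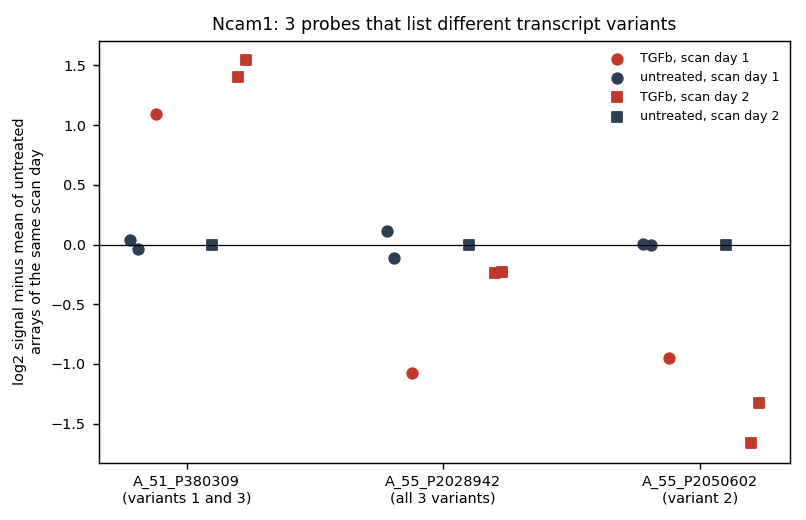
Log2 signal of each Ncam1 probe minus the mean of the untreated arrays of the same scan day, with circles for day 1 (1 TGFb, 2 untreated arrays) and squares for day 2 (2 TGFb arrays, 1 untreated, which is 0 by construction). The probe of variants 1 and 3 lies above 0 on the 3 TGFb arrays and the variant 2 probe below 0 on all 3. The shared probe is below 0 on all 3 too, by more on day 1 (-1.07) than on day 2 (mean -0.23).

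In the L1 family, Nrcam was the member with a clear signal on every array. Nrcam, which clusters sodium channels on axons through ankyrin, read 0.10, -0.01 and 1.50 untreated and -1.65, -0.43 and -1.03 with TGFb, at mm9 chromosome 12, 45699758 to 45699817. The groups did not overlap. The difference was -1.57 ± 0.54 (SE, n = 3 per group; limma adjusted p = 0.324), and the scan-day model gave -1.97 ± 0.24 (adjusted p = 0.00969). Day 1 alone gave -1.70 and day 2 alone -2.23. The authors' deposited table gave 11.16 to 11.42 untreated and 9.04 to 9.71 with TGFb.

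Nfasc, the neurofascin of axon initial segments and nodes, was well above background on the 3 arrays of day 2 and on 0 of the 3 arrays of day 1. It read -6.84, -7.64 and -5.34 untreated and -6.72, -4.68 and -3.78 with TGFb. The groups overlapped, and the difference of 1.55 ± 0.92 (limma adjusted p = 0.622) became 0.81 ± 0.37 in the scan-day model (adjusted p = 0.234). The authors' deposited table gave -0.05. L1cam showed the opposite link with the day. It was well above background on untreated replicates 1 and 2, both of day 1, and on none of the TGFb arrays, and it was not tested. It read -4.17, -4.28 and -7.80 untreated and -5.19, -6.75 and -7.30 with TGFb. On day 1 the TGFb array was below the untreated arrays (a difference of -0.96), and on day 2 the order was turned (0.78), so no direction or fold is given. Both probes of Chl1, the close homologue of L1, were not well above background on any of the 6 arrays. One read -7.79 to -7.33 and the other -7.70 to -5.52, with the highest value on TGFb replicate 3.

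The integrin ligands differed in whether they were measurable. Vcam1 was bright on the probe A_51_P210956, which read 3.53, 3.68 and 2.40 untreated and 2.95, 2.03 and 2.03 with TGFb. The untreated array of day 2 lay below the TGFb array of day 1, so the groups overlapped. The difference was -0.86 ± 0.47 (SE, n = 3 per group; limma adjusted p = 0.583), and the scan-day model gave -0.51 ± 0.15 (adjusted p = 0.101). Day 1 alone gave -0.65 and day 2 alone -0.37. In the authors' deposited table the groups did not overlap on this probe, at 13.47 to 13.96 untreated and 13.13 to 13.25 with TGFb, but the probe did not pass the threshold there either. The other Vcam1 probe, A_52_P520495, lies nearer the start of the same transcript and had a difference of 0.25 ± 0.35 (adjusted p = 0.822), 0.03 in the scan-day model and -0.07 in the authors' deposited table. The Icam1 probe was not well above background on any of the 6 arrays, at -7.92 to -7.36, so a change in this gene could not be measured.

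Mcam had 2 probes, both on mm9 chromosome 9, and the one that stood for the gene followed the scan day. The brighter probe, A_55_P1986552 at 43950664 to 43950723, read 4.83, 4.72 and 8.25 untreated and 5.0, 8.15 and 8.56 with TGFb. The 3 arrays of day 2 were all above the 3 arrays of day 1, by 3.48 in untreated and 3.36 in treated cells, and the groups overlapped. The difference of 1.30 ± 1.33 (limma adjusted p = 0.769) became 0.16 ± 0.17 in the scan-day model (adjusted p = 0.596). This probe holds a run of 20 bases of alternating G and T, in capitals in the stretch of 30 bases from its start:
Mcam A_55_P1986552: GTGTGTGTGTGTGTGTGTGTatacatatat

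Of the 30197 tested probes, 71 held GT 8 times in a row. Their median difference between days in untreated arrays was 2.66, against 0.06 for all tested probes, and 68 of the 71 (95.8%) differed by over 2, against 4.42% of all. From the scan-day model, their median difference between TGFb and untreated was 0.02. The other Mcam probe, A_55_P1986551 at 43949385 to 43949444, has no such run. It read -0.84, -0.92 and -2.93 untreated and 0.02, -1.72 and -1.25 with TGFb, and the day 2 value minus that of day 1 was -2.05 in untreated cells. Its difference was 0.58 ± 0.73 (adjusted p = 0.803 over probes), and it rose in the scan-day model, by 1.17 ± 0.22 (adjusted p = 0.0383), with 0.90 on day 1 and 1.45 on day 2. That call was lost without TGFb replicate 1 or 2 and without each of the untreated replicates.

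**Figure D4:**
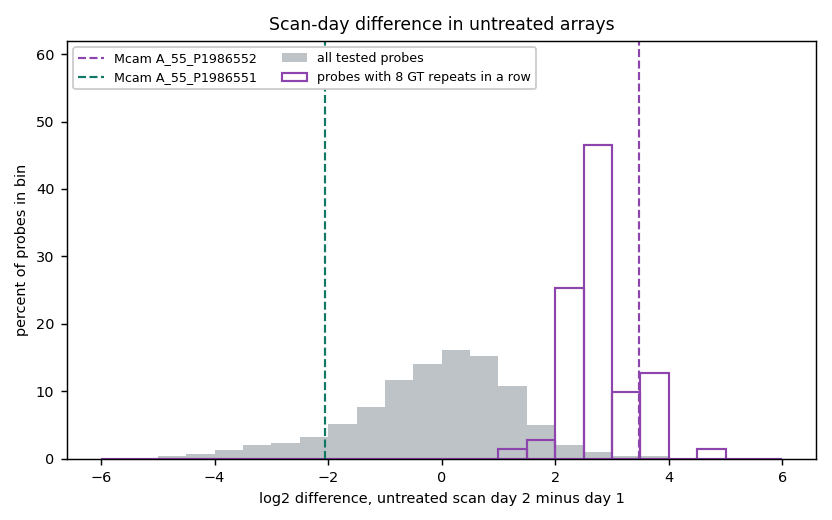
Percent of probes by their log2 difference between untreated arrays of scan day 2 (1 array) and day 1 (mean of 2 arrays), in bins of 0.5, for 30197 tested probes (filled) and for the 71 with 8 GT repeats in a row (outlined). Dashed lines mark the Mcam probes, at 3.48 for the probe with the repeat and -2.05 for the other.

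Markers of other cell types in which the members are also found were given as sums of linear signal over each list, relative to the 75th percentile. Pericyte markers (5 of 6 above background on all arrays, Kcnj8 on none) summed to 31.1 to 45.0 on TGFb arrays and 21.1 to 25.3 on untreated arrays. Their part in the Mcam, Ncam1 and Alcam values was not tested. Endothelial markers (2 of 7 above on all arrays; Cldn5, Emcn, Tek and Tie1 on none) summed to 0.435 to 2.94 and 0.345 to 3.17, with the higher sums on day 1 in both groups. Fibroblast markers (4 of 6; Dpt on none) gave 2.74 to 5.17 and 1.97 to 3.36, neuronal markers (4 of 5; Syt1 on none) 32.8 to 186 and 18.3 to 88.6, and haematopoietic markers (3 of 6; Cd68 on none) 16.7 to 117 and 16.5 to 66.5. In these 3 lists the day 2 sums were the higher in both groups. Within each day every TGFb array was above the untreated arrays in the fibroblast and neuronal sums, and their part in the results was not tested. On each array Cd34 made up at least 76.0% of the fibroblast sum, and Kdr at least 72.5% of the endothelial sum. The haematopoietic sum was at least 92.6% Itgam on each array. On day 1 the haematopoietic sum was 16.7 with TGFb and 16.5 and 16.9 untreated. On day 2 it was 101 and 117 with TGFb and 66.5 untreated, and its part in the results was not tested. Epithelial markers (0 of 4 above on all arrays) were low in both groups, at 0.139 to 0.165 and 0.089 to 0.115, and their part was not tested either. Myoblast markers summed to 313 to 499 and 456 to 675, with every TGFb array below the untreated arrays of its day. Myog made up at least 34.5% of the myoblast sum on each array. In bulk RNA, fewer cells of a type and less RNA per cell cannot be told apart.

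Among 56 other immunoglobulin adhesion molecules, 33 were tested. In limma without scan day 0 passed, with 7 at an unadjusted p under 0.05 (2528 of 21999 over all genes), and the median difference was 0.22, against 0.05 over all genes. The groups did not overlap for 10 of the 33, against 18% of all genes. In the scan-day model 4 rose and 2 fell, against 4.59% and 5.59% of all genes, and the median was 0.16, against 0.04. The values that follow are from that model. The adjusted p of these 6 without scan day was 0.0599 to 0.376. Cxadr, a tight-junction receptor for coxsackievirus and adenovirus, rose by 1.94 ± 0.15 (limma adjusted p = 0.00336). F11r, a junctional adhesion molecule, rose by 1.31 ± 0.15, Mpzl1 by 0.95 ± 0.13 and Sdk1, a sidekick molecule of synapses, by 0.75 ± 0.14. Thy1, a lipid-anchored molecule of fibroblasts and neurons, changed by -1.55 ± 0.14 (adjusted p = 0.00497), and Icam4 by -1.05 ± 0.15. The adjusted p of F11r, Mpzl1, Sdk1 and Icam4 was 0.00844 to 0.0313.

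Of 35 genes for binding partners, anchors and modifiers of the members, 33 were tested. In limma without scan day 0 passed, with 6 at an unadjusted p under 0.05 (2528 of 21999 over all genes). The median difference was 0.19, against 0.05 over all genes. The groups did not overlap for 7 of the 33, a share near the 18% of all genes. The scan-day model gave 4 that rose and 5 that fell, against 4.59% and 5.59% of all genes, with a median of -0.0027 over the list and 0.04 over all genes. Of the 9, 5 are described here. Gdnf, a growth factor that can signal through Ncam1, rose by 2.22 ± 0.17 (adjusted p = 0.00318). Ezr, the ezrin linker between membrane and actin, rose by 1.40 ± 0.16 and Nrp2, a semaphorin co-receptor, by 1.06 ± 0.15. St8sia4, which adds polysialic acid to Ncam1, changed by -1.25 ± 0.20 (adjusted p = 0.0221). Ank1, an ankyrin, changed by -0.91 ± 0.15. The adjusted p of Ezr, Nrp2 and Ank1 was 0.00808 to 0.0223. Without scan day the adjusted p of these 5 genes was 0.0982 to 0.469.

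Of 21 NF-kB and cytokine response genes, a group that includes known inducers and companions of Vcam1 and Icam1, 14 were tested. In limma without scan day 0 passed, with 2 at an unadjusted p under 0.05 (2528 of 21999 over all genes). The median difference was 0.27, against 0.05 over all genes. The groups did not overlap for 3 of the 14, a share near the 18% of all genes. In the scan-day model 2 rose and 1 fell, against 4.59% and 5.59% of all genes, with a median of 0.12 over the list and 0.04 over all genes. Their adjusted p without scan day was 0.0998 to 0.846. Selp, the adhesion receptor P-selectin, rose by 2.94 ± 0.14 (adjusted p = 0.00158) and Nfkbie, an NF-kB inhibitor, by 1.06 ± 0.22 (adjusted p = 0.0447). Cxcl1, a neutrophil chemokine, changed by -1.38 ± 0.14 (adjusted p = 0.00584). Over the 3 lists the scan-day model made 18 calls. Without TGFb replicate 1 they were 5, and without untreated replicate 1, 2 or 3 they were 6, 5 and 2.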

How the data were processed

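The authors deposited spot intensity values from the scanner, 1 set per array. Per the file headers, Agilent Feature Extraction (version 10.7.3.1) made the processed signal by background subtraction and detrending. The authors' second deposit, a table of normalized log2 values, comes with no stated method and served as an alternative. Each of its columns correlated best with its own array's log2 mean signal (r of 0.992 to 0.993), its column medians were 7.11 to 7.12, and its values rise with the signal. Control spots and outlier spots were left out, log2 processed intensity was scaled by the 75th percentile, and spots of 1 probe were averaged. Symbols were updated through RefSeq accessions (GRCm38.p6) for 26300 of 55681 probes, which renamed 2839; members were taken by the scanner files' gene names. limma 3.58.1 in R 4.3.3 (lmFit, eBayes) compared the groups, with Benjamini-Hochberg adjustment over all genes or all probes; p-values measure the spread between these arrays, whose number limits precision. The fit was tested on simulated data. The members and lists were chosen with earlier results of these data known. Named were all members and their probes, up to 6 genes a list by smallest adjusted p (1 gene and 1 marker list are not reported here), and the 5 genes most correlated with Alcam, clone names left out. Alternatives were scaling, background correction, filters, the authors' table, scan day, slide and replicate blocks, probe choice and leaving out each array. Leaving out arrays with scan day as a term was added after seeing the data.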

Additional observations from a re-analysis of the deposited data

How the results depend on the processing

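The count of all genes called in limma, 302 as reported, was 101 with median scaling, 769 with slide as a block, 2239 in the scan-day model and 3292 in the authors' table. It was 0 to 196 when single arrays were left out. In the scan-day model it was 706, 1744 and 3321 without TGFb replicate 1, 2 and 3, and 673, 599 and 328 without untreated replicate 1, 2 and 3. For members other than Alcam the count of 0 became 1 after quantile normalization, 1 after normexp correction, 2 with slide as a block, 3 in the scan-day model and 3 in the authors' table, and 1 to 3 when arrays were left out in the scan-day model. For their probes it became 1, 1, 1, 5 and 4 in the same order, and 0 to 5. For the 3 gene lists together it became 1 with the filter on all 6 arrays, 1 with the mean of a gene's probes, 6 with slide, 18 with scan day and 22 in the authors' table, and 5, 17, 20, 6, 5 and 2 in the scan-day model without TGFb replicate 1, 2 and 3 and untreated replicate 1, 2 and 3. Without scan day, leaving out any 1 array left the members and lists at 0 calls. The signs that turned were small: the Vcam1 probe A_52_P520495 had -0.075 and the Nfasc probe -0.054 in the authors' table, the Vcam1 probe had -0.016 without untreated replicate 2 and -0.10 without untreated replicate 3 (both in the scan-day model), and the Mcam probe A_55_P1986551 ranged from -0.10 (without untreated replicate 3) to 0.952 when single arrays were left out. The cause was not tested. With the replicate block the calls were 2 over all genes and 0 among members and lists. Deviations of same-numbered arrays correlated at 0.81, -0.72 and 0.69 for numbers 1, 2 and 3. Arrays numbered 1 shared a scan day, as did those numbered 3, and those numbered 2 did not. The numbers were therefore not taken as a pairing, and 1 of the 3 TGFb arrays correlated best with the untreated array of its own number. Icam1, Chl1 and L1cam lay too near background for a test.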

Other observations

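In the authors' table the link with the scan day was much weaker than in the scanner values. Arrays of 1 group from different days correlated at 0.991 to 0.993 across genes there, above the 0.979 to 0.984 of arrays of different groups from 1 day. The brighter Mcam probe read 17.05 to 17.30 on all 6 arrays, with a difference of 0.01 between the days in untreated cells, against 3.48 in the scaled scanner values.

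Probes with the complementary repeat, AC 8 times in a row, numbered 32 among the tested probes. Their median difference between scan days in untreated arrays was 1.46, and 10 of the 32 (31.2%) differed by over 2.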
